A study of Mus musculus with 6 samples.

Results

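Fatty acids are burned in the mitochondria of muscle in a chain of steps, and 37 genes of that chain were followed in cachectic and control muscle. The genes were chosen by symbol for their place in the route, which runs from activation of fatty acids through the carnitine shuttle and its malonyl-CoA brake to the 4 reactions of beta-oxidation, the transfer of electrons, the thioesterases and the uncoupling proteins. Of the 37 named genes, 36 were among the 13363 genes with deposited values, and Acot1, an acyl-CoA thioesterase of the cytosol, was not. The study compared the gastrocnemius, a fast muscle of the calf, of male Balb/c mice carrying C26 tumors (3 samples) with that of nontumor-bearing male Balb/c mice (3 samples). C26 is a mouse colon adenocarcinoma line. It was grown under the skin of the right flank as a model of cancer cachexia, and the controls were not inoculated. The mice were bought at 6 weeks of age and kept for 1 week before the experiment. The labels number 3 replicates a group without saying that each is a separate mouse, so p-values measure the spread between these samples, called muscles here, which may in part be technical. Values are FPKM, a measure of transcript level scaled for transcript length and library size, as the authors deposited them.

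Long-chain fatty acids are joined to coenzyme A by acyl-CoA synthetases, moved onto carnitine by carnitine palmitoyltransferase 1 on the outer mitochondrial membrane, carried across the inner membrane and returned to coenzyme A. Inside the mitochondrion each round of oxidation shortens the chain through a dehydrogenase, a hydratase, a second dehydrogenase and a thiolase, and the electrons of the acyl-CoA dehydrogenases pass through electron transfer flavoprotein to ubiquinone. Malonyl-CoA, made by acetyl-CoA carboxylase and removed by malonyl-CoA decarboxylase, blocks carnitine palmitoyltransferase 1. In skeletal muscle the route is known for its rise in fasting and endurance exercise.

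The summed FPKM of the 36 listed genes were 4170.0, 4104, and 3946 in C26 replicates 1, 2, and 3, and 2110.0, 2792, and 1955 in Control replicates 1, 2, and 3. These sums made up 0.674 to 0.785% of all FPKM in the C26 muscles and 0.284 to 0.445% in the control muscles, and the groups did not overlap. With an adjusted p under 0.05 in limma (Benjamini-Hochberg over 13363 genes), 17 of the 36 genes were higher in C26 muscle, which is 47.2%, against 19.4% of all genes. Only Acsl5 was lower by this test, which is 2.78% of the 36, against 14.5% of all genes. The other 18 did not pass, 9 with a positive and 9 with a negative log2 fold change. By the additional criterion of a change above 4-fold, 4 of the 36 were upregulated DEGs (11.1% against 1.77% of all genes), namely Acot2, Mlycd, Acadl, and Acacb. None was a downregulated DEG, against 1.73% of all genes, since the lowest log2 fold change was -1.61. All C26 muscles lay above all control muscles on the normalised scale for 17 genes (47.2% against 27.0% of all genes) and below them for 2 genes, Acsl5 and Cpt1a (5.56% against 26.5%). The median log2 fold change was 0.69 over the 36 genes and -0.05 over all genes.

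**Figure D1:**
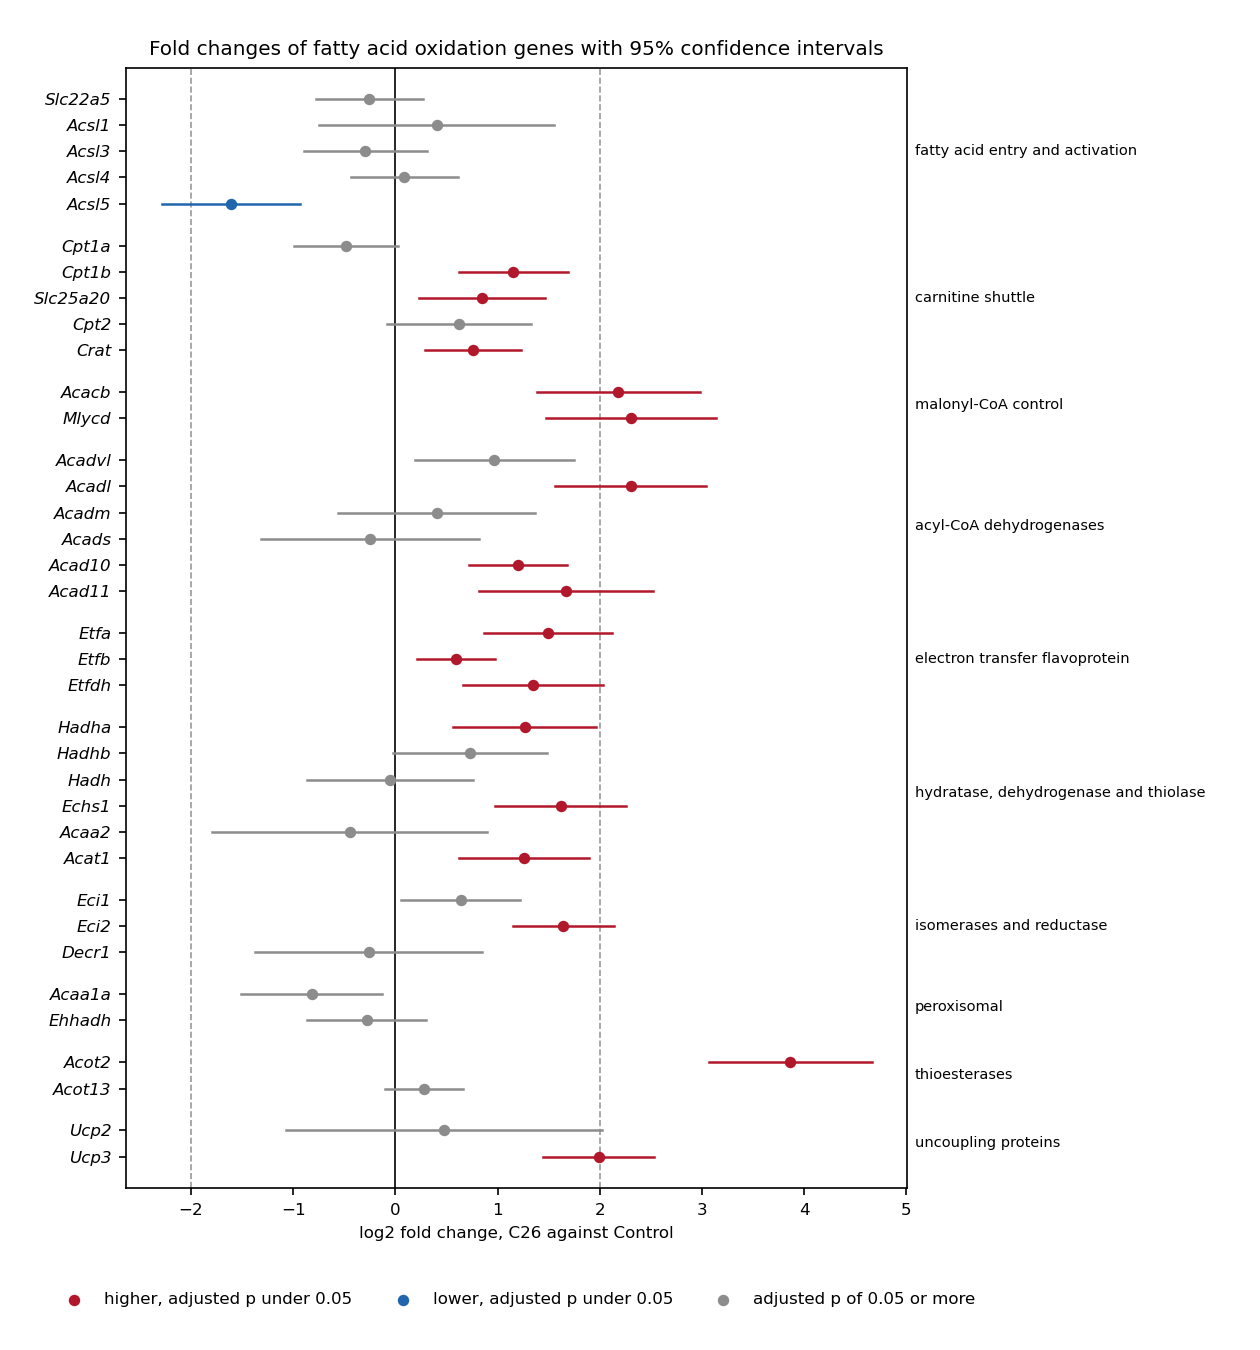
Log2 fold change of each of the 36 listed genes between 3 C26 and 3 control muscles on the x axis, with genes on the y axis ordered by role. Points are limma estimates, lines are 95% confidence intervals without adjustment for multiple testing, dashed lines mark 4-fold changes, and colors mark the call, with Acot2 at 3.86 farthest to the right and Acsl5 at -1.61 farthest to the left.

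These counts depended on single muscles. Leaving out each muscle in turn gave between 9 and 20 genes higher, with 9 without C26 replicate 1, 9 without Control replicate 1, and 20 without Control replicate 2. Over all 13363 genes these 3 fits called 1131, 1152, and 2004 higher, against 2590.0 with all muscles. In all 6 of these fits 10 genes kept their call, and these were Acsl5, Acacb, Mlycd, Acadl, Acad10, Etfa, Echs1, Eci2, Acot2, and Ucp3. Fold changes were computed on a scale that set C26 muscles 0.22 log2 units higher, relative to controls, than the deposited FPKM. On the deposited FPKM 15 of the 36 genes were higher and 2 lower, while over all genes the split moved from 2590 higher and 1931 lower to 1678 higher and 2504 lower.

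The upstream sequences of the 5 genes with the largest changes are shown with that of Hadhb, whose start lies close to that of its partner subunit. They are the 250 bases before the RefSeq transcription start on the coding strand, in build GRCm38.p6, with the capitals marking AGGTCA, the half-site that receptors such as PPAR-RXR and the estrogen-related receptors bind.
Acot2, chr12:83987611-83987860, plus strand: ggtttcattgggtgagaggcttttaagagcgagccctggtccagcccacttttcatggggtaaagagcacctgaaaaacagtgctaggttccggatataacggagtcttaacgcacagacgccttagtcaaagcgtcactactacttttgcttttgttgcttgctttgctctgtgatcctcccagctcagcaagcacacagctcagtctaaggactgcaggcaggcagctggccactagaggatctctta
Mlycd, chr8:119394644-119394893, plus strand: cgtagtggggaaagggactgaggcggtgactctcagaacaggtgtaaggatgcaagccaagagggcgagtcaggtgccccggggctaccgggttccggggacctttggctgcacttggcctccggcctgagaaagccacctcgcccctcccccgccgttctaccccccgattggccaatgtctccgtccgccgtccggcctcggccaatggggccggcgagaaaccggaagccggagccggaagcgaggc
Acadl, chr1:66863310-66863559, minus strand: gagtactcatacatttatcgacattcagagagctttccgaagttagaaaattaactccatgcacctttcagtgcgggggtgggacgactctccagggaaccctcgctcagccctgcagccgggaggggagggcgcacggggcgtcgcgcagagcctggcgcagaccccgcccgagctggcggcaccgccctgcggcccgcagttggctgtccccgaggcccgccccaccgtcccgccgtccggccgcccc
Acacb, chr5:114165268-114165517, plus strand: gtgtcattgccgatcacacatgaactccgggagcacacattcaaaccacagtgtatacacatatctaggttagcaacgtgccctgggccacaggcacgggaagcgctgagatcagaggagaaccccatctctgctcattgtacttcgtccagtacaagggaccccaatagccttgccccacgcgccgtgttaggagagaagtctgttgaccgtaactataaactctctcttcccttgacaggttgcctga
Ucp3, chr7:100472741-100472990, plus strand: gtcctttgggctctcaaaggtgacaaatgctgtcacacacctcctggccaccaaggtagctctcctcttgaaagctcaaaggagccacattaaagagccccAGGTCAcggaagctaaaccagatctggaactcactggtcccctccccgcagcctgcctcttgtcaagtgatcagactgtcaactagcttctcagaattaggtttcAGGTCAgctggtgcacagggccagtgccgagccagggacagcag
Hadhb, chr5:30155003-30155252, plus strand: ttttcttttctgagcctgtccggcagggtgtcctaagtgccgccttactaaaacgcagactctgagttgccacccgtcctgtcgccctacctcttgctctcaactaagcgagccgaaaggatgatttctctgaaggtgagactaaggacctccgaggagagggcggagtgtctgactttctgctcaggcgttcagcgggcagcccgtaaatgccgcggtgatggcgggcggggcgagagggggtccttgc

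Windows of 300 bases, reaching 50 bases past the start, were found for 30 of the 36 listed genes and searched on both strands. AGGTCA or its complement was present in 6 of the 30, against 16% of 27025 windows of all genes. These were Acacb, Acadm, Acadvl, Cpt1a, Echs1, and Ucp3, of which Acacb, Echs1, and Ucp3 were higher in C26 muscle. Ucp3 held it at 149 and 44 bases before the start, Echs1 at 83 bases before, and Acacb, as the complement, at 43 bases after, outside the stretch shown. The direct repeat of AGGNCA with 1 base between the copies was in 0 of the 30 windows (0.381% of all), the extended half-site TCAAGGTCA in 0 (0.407%), and the forkhead motif GTAAACA in 0 (3.55%), where TCAAGGTCA also contains AGGTCA. A match is a run of letters only, and sites elsewhere in the genes were not searched.

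Fatty acids enter through activation. Of the 5 listed genes of this role 0 were called higher and 1 lower, beside 19.4% and 14.5% of all genes. The counts for the role were the same at an unadjusted p under 0.05. Acsl5, an acyl-CoA synthetase of mitochondria and endoplasmic reticulum, was listed at 1.24, 1.21, and 1.06 FPKM in C26 replicates 1, 2, and 3 and at 5.79, 3.14, and 8.86 FPKM in Control replicates 1, 2, and 3. All C26 muscles lay below all control muscles, and the log2 fold change was -1.61 (SE 0.28, limma adjusted p = 0.00921). Control replicate 3, where Acsl5 was highest, also held the B cell gene Cd79b at 134 FPKM, against 0.05 to 0.82 FPKM in the other 5 muscles, and the part of other cells in the Acsl5 difference was not tested. Without that muscle Acsl5 kept its call. Acsl1, the main synthetase of muscle, was 54.5, 60.2, and 87.0 FPKM in C26 and 74.8, 87.5, and 29.1 FPKM in control muscles, and the groups overlapped (log2 fold change 0.40, 95% interval -0.75 to 1.56, adjusted p = 0.531). Acsl3 and Acsl4 and the carnitine carrier of the plasma membrane, Slc22a5, stayed under 6 FPKM in every muscle and did not pass, with log2 fold changes of -0.29, 0.09, and -0.26, and 27.1% of the 50-base windows of Slc22a5 transcripts also occur elsewhere, chiefly in Slc22a21. Acsl6, a synthetase outside the 37, was called higher and made up 39.8, 39.8, and 14.2% of the summed FPKM of the 5 synthetases in C26 muscles and 11.7, 11.6, and 20.4% in control muscles, so that these shares overlapped.

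The carnitine shuttle was higher at its muscle-type entry gene. Cpt1b, the muscle isoform of carnitine palmitoyltransferase 1, was 217, 170.0, and 169.5 FPKM in C26 replicates 1, 2, and 3 and 91.2, 116, and 83.3 FPKM in Control replicates 1, 2, and 3. The groups did not overlap, and Cpt1b was 2.23-fold higher (log2 fold change 1.15, SE 0.22, adjusted p = 0.0121). Its call was lost without C26 replicate 1 or without Control replicate 1, where the adjusted p reached 0.053 at most. Cpt1a, the isoform known from liver, was at 2.40, 2.86, and 1.52 FPKM in C26 and 4.76, 2.91, and 4.0 FPKM in control muscles. Each C26 value was below each control value, C26 replicate 2 by 0.05 FPKM only, and the test was not passed (log2 fold change -0.48, 95% interval -0.99 to 0.02, adjusted p = 0.12). The ratio of Cpt1b to Cpt1a was 90.6, 59.5, and 112 in C26 replicates 1, 2, and 3, against 19.2, 39.9, and 20.8 in the controls. These ranges did not overlap, and the difference was 1.75 on the log2 scale with a two-sided exact permutation p of 0.1, the smallest that 3 against 3 can give. Of the 50-base windows of Cpt1b, 80.4% also occur in the readthrough gene model Gm44502, and how the authors' counting divided them is not known. Cpt1b held 98.3 to 99.0% of the summed FPKM of the 3 Cpt1 genes in C26 muscles and 94.3 to 97.2% in controls.

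Of the 3 remaining genes of the shuttle, 2 were called higher, beside 19.4% of all genes. Crat, carnitine acetyltransferase, which buffers acetyl-CoA, was 194, 188, and 189 FPKM in C26 and 130.4, 152, and 111 FPKM in control muscles (log2 fold change 0.76, SE 0.20, adjusted p = 0.0277). Slc25a20, the carnitine-acylcarnitine translocase of the inner membrane, was 48.3, 48.3, and 52.5 FPKM in C26 and 30.2, 42.1, and 25.2 FPKM in control muscles (log2 fold change 0.85, SE 0.26, adjusted p = 0.045). Crat lost its call when any of 3 muscles was left out and Slc25a20 when any of 5 was. Both also lost it after quantile normalization, with a replicate block, and in an ordinary linear model. Slc25a20 lost it too with a pseudocount of 0.1 and on FPKM as deposited. Cpt2, which returns the acyl group to coenzyme A, was 33.0, 26.03, and 38.9 FPKM against 22.6, 32.0, and 19.2 FPKM with overlapping groups and did not pass (log2 fold change 0.62, adjusted p = 0.144).

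**Figure D2:**
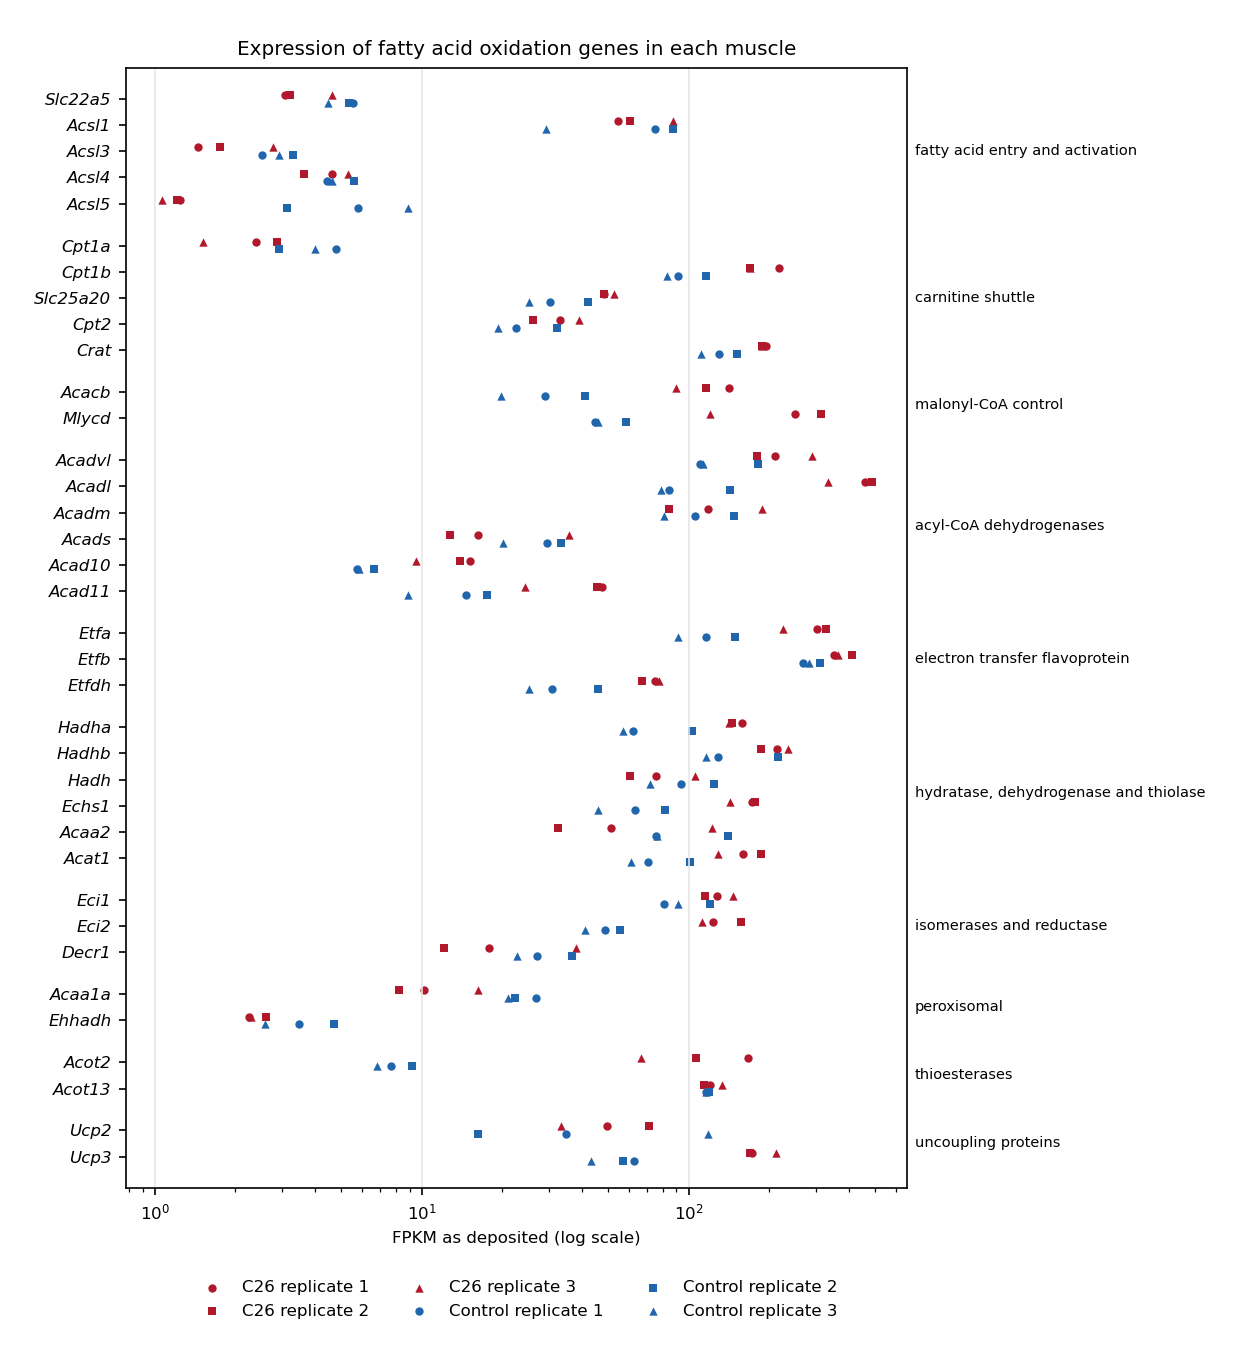
FPKM as deposited, on a log scale, for the 36 listed genes in each of 3 C26 muscles (red) and 3 control muscles (blue), with the replicates as circles, squares, and triangles and genes ordered by role. Acot2 and Acadl show red points clear of the blue ones, while for Acadm, Acads, Decr1, and Ucp2 the colors interleave.

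Both listed genes that set malonyl-CoA were higher, although they act in opposite directions. Acacb, the acetyl-CoA carboxylase of the mitochondrial surface that makes malonyl-CoA, was 142, 116, and 89.9 FPKM in C26 replicates 1, 2, and 3 and 29.1, 41.0, and 19.7 FPKM in Control replicates 1, 2, and 3. Mlycd, the decarboxylase that removes malonyl-CoA, was 251, 313, and 120.5 FPKM in C26 and 44.7, 58.4, and 45.7 FPKM in control muscles. Neither gene had overlapping groups, and C26 replicate 3 was the lowest C26 muscle for both. Acacb was 4.54-fold higher (log2 fold change 2.18, SE 0.33, adjusted p = 0.00673) and Mlycd 4.94-fold (log2 fold change 2.30, SE 0.35, adjusted p = 0.00653). The ratio of Acacb to Mlycd was 0.566, 0.371, and 0.747 in C26 and 0.650, 0.702, and 0.432 in control muscles, and the ranges overlapped. Acaca, the carboxylase of the cytosol that feeds fatty acid synthesis, is not one of the 37 and was not called (log2 fold change -0.91, adjusted p = 0.351), with 4.18, 3.82, and 3.12 FPKM in C26 and 8.71, 24.2, and 2.69 FPKM in control muscles. Acacb exceeded Acaca by 28.8 to 34.0 times in C26 muscles and by 1.69 to 7.34 times in control muscles.

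Among the acyl-CoA dehydrogenases, which carry out the opening step of each round, the long-chain enzyme had the largest change. Acadl, the long-chain acyl-CoA dehydrogenase, was 459, 485, and 331 FPKM in C26 replicates 1, 2, and 3 and 84.1, 143, and 78.8 FPKM in Control replicates 1, 2, and 3. It was 4.93-fold higher with no overlap (log2 fold change 2.30, SE 0.31, adjusted p = 0.00509). Acadvl, for very long chains, was 211, 180.1, and 289 FPKM in C26 and 110.3, 182, and 113 FPKM in control muscles, and Control replicate 2 lay within the C26 range (log2 fold change 0.97, adjusted p = 0.0599). Acadm, for medium chains, was 118, 84.6, and 187 FPKM against 105, 148, and 80.5 FPKM (log2 fold change 0.41, 95% interval -0.56 to 1.37, adjusted p = 0.454). Acads, for short chains, was 16.3, 12.7, and 35.6 FPKM against 29.5, 33.2, and 20.1 FPKM (log2 fold change -0.25, 95% interval -1.31 to 0.82, adjusted p = 0.684). For both genes the groups overlapped, with C26 replicate 3 the highest of the 6 muscles and C26 replicate 2 the lowest or next to lowest.

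As a share of the summed FPKM of these 4 genes, Acadl made up 57.1, 63.6, and 39.3% in C26 muscles and 25.5, 28.2, and 26.9% in control muscles. Acadm made up 14.6, 11.1, and 22.2% in C26 muscles and 32.0, 29.2, and 27.5% in control muscles. Neither pair of ranges overlapped, and C26 replicate 3 lay nearest to the controls for both. The ratio of Acadl to Acadm was 3.90, 5.73, and 1.77 in C26 and 0.798, 0.967, and 0.978 in control muscles.

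**Figure D3:**
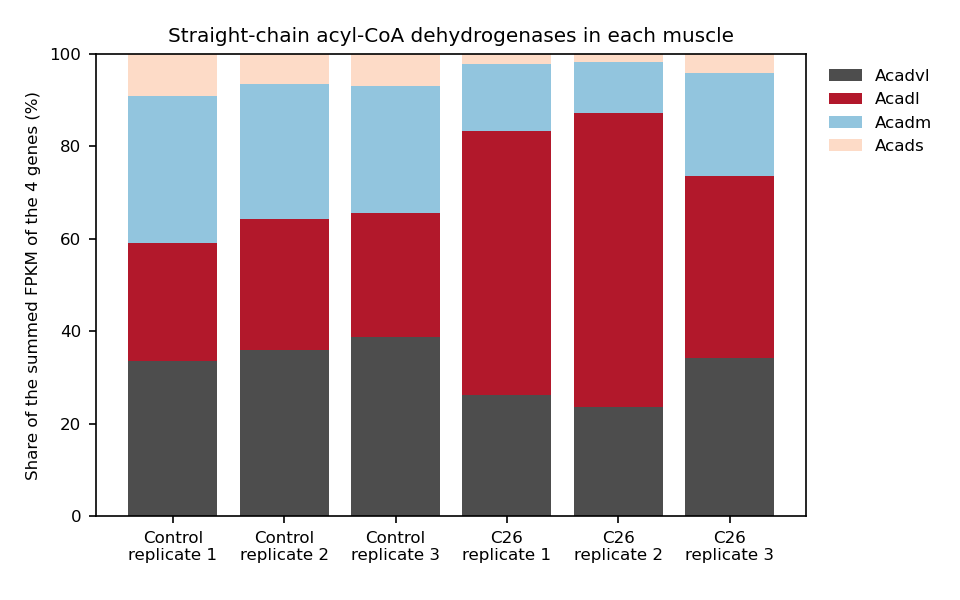
Share, in percent, of the summed FPKM of 4 straight-chain acyl-CoA dehydrogenase genes taken by each gene, with 1 bar for each of 3 control and 3 C26 muscles. The Acadl part covers 25.5 to 28.2% of the control bars and 39.3 to 63.6% of the C26 bars.

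The remaining dehydrogenases of the group were higher at lower levels. Acad11, which acts on long-chain substrates, was 47.3, 45.3, and 24.5 FPKM in C26 and 14.7, 17.5, and 8.86 FPKM in control muscles (log2 fold change 1.67, SE 0.35, adjusted p = 0.0156), and its call was lost without C26 replicate 1, C26 replicate 2, or Control replicate 1. Acad10 was 15.2, 13.9, and 9.52 FPKM in C26 and 5.71, 6.60, and 5.81 FPKM in control muscles (log2 fold change 1.2, SE 0.20, adjusted p = 0.00812). Of the 50-base windows of Acad10 transcripts, 20.2% also occur in its neighbor Acad12, so reads can be shared between these genes.

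Electron transfer flavoprotein, the acceptor of electrons from the acyl-CoA dehydrogenases, has an alpha and a beta subunit that form a heterodimer. Etfa, the alpha subunit, was 303, 328, and 226 FPKM in C26 replicates 1, 2, and 3 and 116, 149, and 90.9 FPKM in Control replicates 1, 2, and 3. Etfb, the beta subunit, was 349, 409, and 364 FPKM in C26 and 268, 311, and 283 FPKM in control muscles. Both were called higher. On the log2 scale Etfa changed by 1.49 (SE 0.26, adjusted p = 0.00921) and Etfb by 0.60 (SE 0.16, adjusted p = 0.0313), and Etfb lost its call when any of 4 muscles was left out. The ratio of Etfa to Etfb was 0.867, 0.801, and 0.622 in C26 and 0.433, 0.479, and 0.321 in control muscles, so Etfa moved nearer to the level of Etfb in each C26 muscle than in any control muscle. Etfdh, the dehydrogenase that hands the electrons to ubiquinone, was 74.5, 67.0, and 77.1 FPKM in C26 and 30.7, 45.9, and 25.2 FPKM in control muscles (log2 fold change 1.34, SE 0.29, adjusted p = 0.0156), and its call was lost without C26 replicate 1, without Control replicate 1, and in an ordinary linear model. Of the windows of Etfb, 57.7% also occur in the gene model Gm45233.

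The mitochondrial trifunctional protein joins long-chain hydratase, dehydrogenase, and thiolase activity in an alpha subunit, Hadha, and a beta subunit, Hadhb. Hadha was 159, 146, and 141 FPKM in C26 replicates 1, 2, and 3 and 62.0, 103, and 56.8 FPKM in Control replicates 1, 2, and 3. It was 2.40-fold higher (log2 fold change 1.26, SE 0.29, adjusted p = 0.0193), and the call was lost without C26 replicate 1, C26 replicate 2, or Control replicate 1. The call was also lost after quantile normalization and in an ordinary linear model. Hadhb was 214, 187, and 236 FPKM in C26 and 128, 216, and 116 FPKM in control muscles, with Control replicate 2 inside the C26 range, and did not pass (log2 fold change 0.73, 95% interval -0.02 to 1.48, adjusted p = 0.113). The genes start 273 bases apart on opposite strands of chromosome 5, so most of the stretch printed for Hadhb, read on the other strand, is upstream of Hadha. The ratio of Hadha to Hadhb was 0.743, 0.778, and 0.599 in C26 muscles and 0.483, 0.479, and 0.488 in control muscles, without overlap. Of the Hadhb windows, 57.5% also occur in other gene models, chiefly Gm13910, and none of the Hadha windows does.

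Of the enzymes that work on shorter chains, the hydratase rose and the next enzyme did not pass. Echs1, the short-chain enoyl-CoA hydratase, was 173, 178, and 143 FPKM in C26 and 62.9, 81.3, and 45.7 FPKM in control muscles, 3.07-fold higher (log2 fold change 1.62, SE 0.27, adjusted p = 0.00819). Hadh, the hydroxyacyl-CoA dehydrogenase that follows it, was 75.3, 60.1, and 106 FPKM in C26 and 93.7, 124, and 71.9 FPKM in control muscles (log2 fold change -0.05, 95% interval -0.86 to 0.76, adjusted p = 0.916). The ratio of Echs1 to Hadh was 2.29, 2.95, and 1.35 in C26 and 0.672, 0.654, and 0.635 in control muscles. Acaa2, the medium-chain thiolase, varied more than 3-fold among C26 muscles, with 51.0, 32.3, and 122 FPKM there and 75.3, 140.4, and 76.2 FPKM in controls (log2 fold change -0.45, 95% interval -1.79 to 0.90, adjusted p = 0.555). Acat1, the acetoacetyl-CoA thiolase that also serves ketone bodies, was 160.1, 186, and 129 FPKM in C26 and 70.3, 101, and 60.8 FPKM in control muscles (log2 fold change 1.26, SE 0.27, adjusted p = 0.0152), and was no longer called without C26 replicate 1, C26 replicate 2, or Control replicate 1.

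Unsaturated fatty acids need auxiliary enzymes, and 1 of these 3 genes was called higher, beside 19.4% of all genes. Eci2, a delta3,delta2-enoyl-CoA isomerase of mitochondria and peroxisomes, was 124, 157, and 113 FPKM in C26 and 48.5, 55.2, and 40.8 FPKM in control muscles (log2 fold change 1.64, SE 0.21, adjusted p = 0.00438). The other mitochondrial isomerase, Eci1, was 128, 115, and 147 FPKM against 80.7, 120.0, and 91.5 FPKM and did not pass (log2 fold change 0.64, adjusted p = 0.0828). Decr1, the 2,4-dienoyl-CoA reductase, was 17.9, 12.1, and 37.8 FPKM against 27.1, 36.6, and 22.8 FPKM (log2 fold change -0.26, 95% interval -1.38 to 0.85, adjusted p = 0.68). The peroxisomal thiolase Acaa1a was 10.2, 8.23, and 16.2 FPKM against 26.8, 22.3, and 21.1 FPKM, lower in each C26 muscle than in each control on the FPKM scale but overlapping after normalisation, and did not pass (log2 fold change -0.82, adjusted p = 0.0683). It was called lower on TPM without TMM, on FPKM as deposited, after quantile normalization, and without C26 replicate 3, and 26.7% of its windows also occur in Acaa1b. Ehhadh, the peroxisomal bifunctional enzyme, was 2.25, 2.62, and 2.29 FPKM against 3.47, 4.69, and 2.58 FPKM (log2 fold change -0.28, adjusted p = 0.391).

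The largest difference among the 36 genes was that of a thioesterase. Acot2, which splits long-chain acyl-CoA inside mitochondria, was 166, 107, and 66.4 FPKM in C26 replicates 1, 2, and 3 and 7.66, 9.18, and 6.81 FPKM in Control replicates 1, 2, and 3. The groups lay far apart, and Acot2 was 14.6-fold higher on the normalised scale (log2 fold change 3.86, SE 0.33, 95% interval 3.07 to 4.66, adjusted p = 0.0019). Its C26 muscles spread more widely than its control muscles, with C26 replicate 1 the highest and C26 replicate 3 the lowest. Acot1 lies 21641 bases downstream on chromosome 12, and 24.5% of the 50-base windows of Acot2 also occur in Acot1, so that reads of the cytosolic enzyme may be included. Acot13, a small thioesterase that is not related to Acot2 in sequence, was 119.8, 114, and 134 FPKM in C26 and 116, 119, and 116 FPKM in control muscles and did not pass (log2 fold change 0.28, 95% interval -0.10 to 0.66, adjusted p = 0.208). Acot2 stood at 1.39, 0.934, and 0.496 times Acot13 in C26 muscles and at 0.0662, 0.0771, and 0.0586 times in control muscles.

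Uncoupling proteins are carriers of the inner membrane that rise with fatty acid supply. Ucp3, the form most particular to skeletal muscle, was 173, 169, and 213 FPKM in C26 replicates 1, 2, and 3 and 62.4, 56.9, and 43.0 FPKM in Control replicates 1, 2, and 3. It was 3.97-fold higher without overlap (log2 fold change 1.99, SE 0.23, adjusted p = 0.00355), and C26 replicate 3 was the highest of the 6 muscles. Ucp2, which lies 20367 bases downstream on chromosome 7 and is abundant in immune cells, was 49.4, 70.9, and 33.3 FPKM in C26 and 34.7, 16.2, and 118 FPKM in control muscles and did not pass (log2 fold change 0.48, 95% interval -1.06 to 2.02, adjusted p = 0.583). The ratio of Ucp3 to Ucp2 was 3.51, 2.39, and 6.39 in C26 and 1.80, 3.51, and 0.365 in control muscles, with an exact two-sided permutation p of 0.3. Ucp2 was highest in Control replicate 3. There the 10 macrophage markers summed to 261 FPKM, of which Lyz2 alone held 187.7, and the 2 listed lymphocyte markers to 145 FPKM. In the other muscles those sums were 62.3 to 328 FPKM and 0.07 to 0.91 FPKM, and their part in Ucp2 was not tested.

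**Figure D4:**
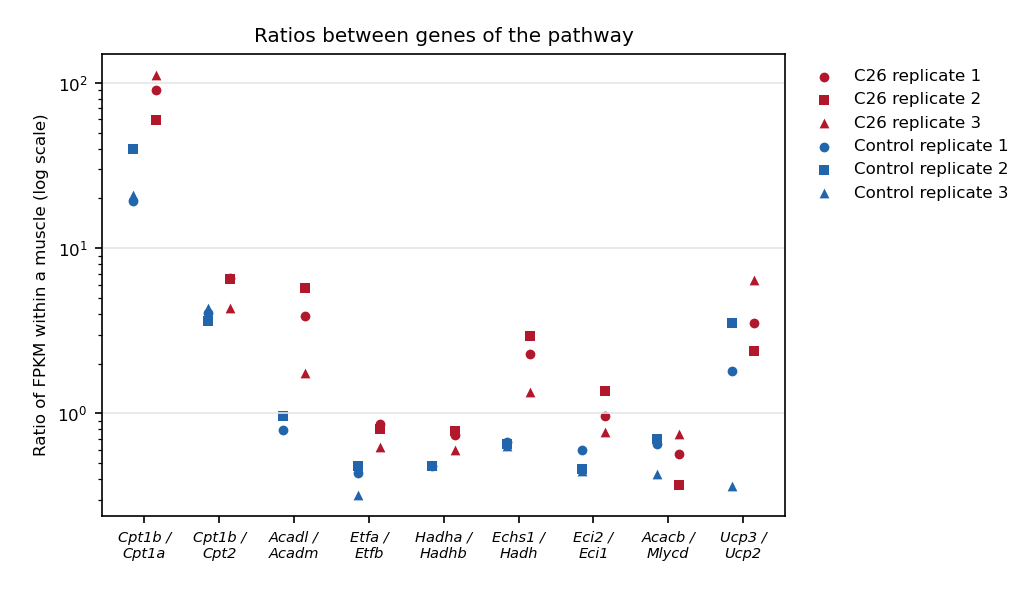
Ratio of FPKM within each muscle, on a log scale, for 9 gene pairs in 3 C26 muscles (red) and 3 control muscles (blue). The red points lie above the blue ones for the ratios from Cpt1b to Cpt1a through Eci2 to Eci1, while Acacb to Mlycd and Ucp3 to Ucp2 overlap. For Cpt1b to Cpt2 the gap is narrow, with 4.364 in C26 replicate 3 and 4.325 in Control replicate 3.

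The C26 muscles differed among themselves. On the normalised scale C26 replicate 3 was the lowest of the 3 C26 muscles for 10 of the 17 genes called higher and the highest for 4 of them. Of the 18 genes that were not called, it was the highest C26 muscle for 15. Against the mean of the other C26 muscles it was higher by 1.69 for Acaa2, 1.44 for Decr1, 1.39 for Acads, and 1.03 for Acadm, and differed by -1.09 for Mlycd, -0.88 for Acot2, and -0.79 for Acad11, all on the normalised log2 scale. The same comparison put 54 of 55 nuclear-encoded respiratory chain subunits higher in C26 replicate 3, with a median of 0.73, 17 of 19 TCA cycle genes, with a median of 0.48, and 22 of the 36 fatty acid oxidation genes, with a median of 0.17. Over all genes 6567 of 13363 were higher there. C26 replicate 3 also held Mb, the myoglobin of oxidative fibers, at 4906 FPKM against 74.0 to 1569 FPKM elsewhere, and Myh1, the myosin of type IIx fibers, at 2555 FPKM against 92.8 to 331 FPKM elsewhere. These genes were chosen after their values were seen. In summed FPKM, the respiratory chain subunits reached 33727 in C26 replicate 3, against 29266 to 32315 in controls. The TCA cycle genes reached 5565.5 there, against 3718.3 to 5172.2 in controls. The whole fiber marker lists set this muscle above the other C26 muscles but not above all controls. Its 7 slow fiber markers summed to 367 FPKM, against 147 and 40.3 FPKM in C26 replicates 1 and 2 and 150.3 to 482 FPKM in controls. Its 8 fast fiber markers summed to 84581 FPKM, against 66679 and 54690.0 FPKM in C26 replicates 1 and 2 and 124240.0 to 140270.0 FPKM in controls. The part of fiber composition or of where the muscle was sampled was not tested. Among controls, on the normalised scale, replicate 2 was the highest for 32 of the 36 genes, including all 17 called higher, and replicate 3 the lowest for 29. How often these replicates, or C26 replicate 3, ranked so over all genes was not counted.

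**Figure D5:**
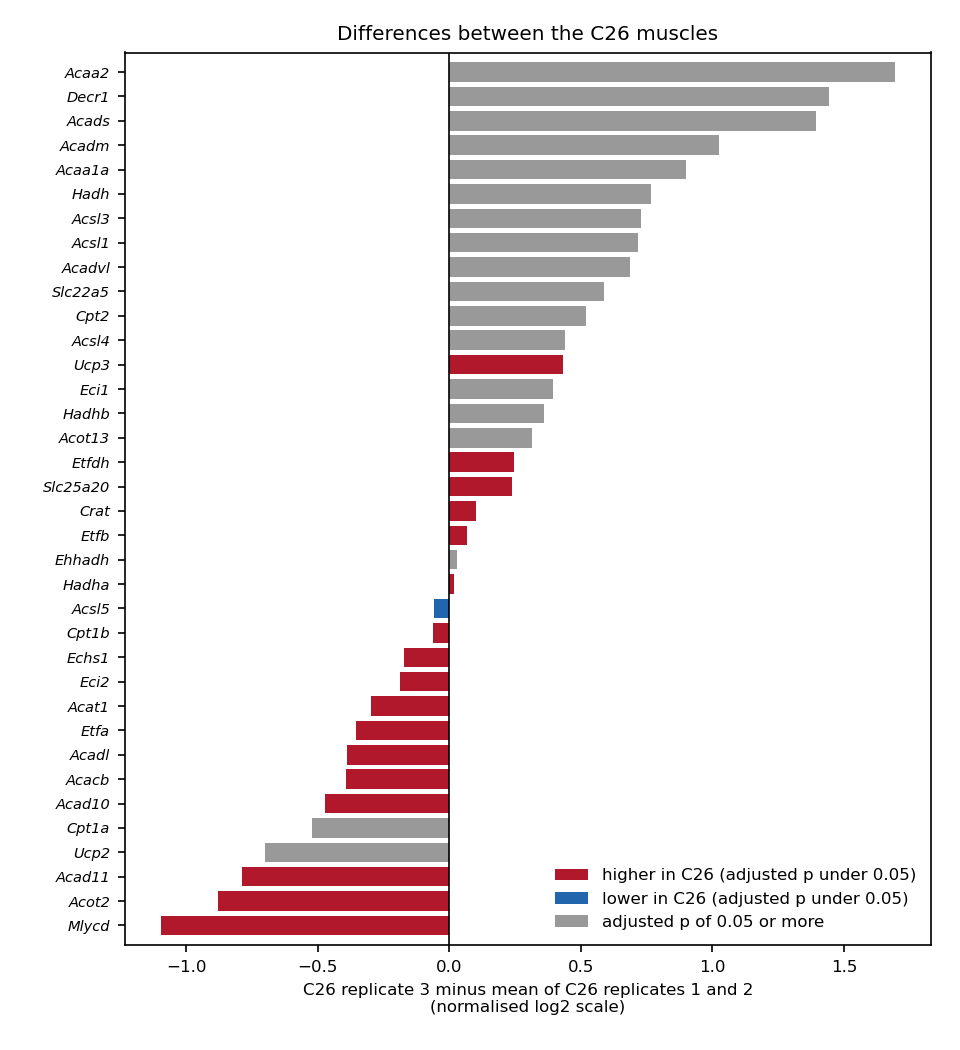
Difference between C26 replicate 3 and the mean of C26 replicates 1 and 2, on the normalised log2 scale, as 1 bar for each of the 36 genes, colored by the call between C26 and control muscles. Bars run from 1.69 for Acaa2 to -1.09 for Mlycd, and gray bars, for genes not called, fill most of the positive side.

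The remainder of the route and its surroundings were read from lists of related genes. Of 55 nuclear-encoded respiratory chain subunits, 0 were called, beside 19.4% of all genes higher and 14.5% lower. Their median log2 fold change was -0.11, and at an unadjusted p under 0.05 there were 0 higher and 1 lower. Other settings called up to 5 of these subunits lower, and an ordinary linear model called 0. That count rested on C26 replicate 3, without which 18 of the 55 were lower and 0 higher, while 16 of the 36 fatty acid oxidation genes were higher and 2 lower. Over all 13363 genes that fit called 3311 higher and 2160.0 lower. Of 19 TCA cycle genes, 4 were higher, a share near the 19.4% of all genes, with 0 lower also at an unadjusted p under 0.05 and a median of 0.34, and the number higher was 0 in an ordinary linear model and 1 without C26 replicate 1. Idh2, the NADP-dependent isocitrate dehydrogenase of mitochondria, was 598, 597, and 279.8 FPKM in C26 and 67.0, 167, and 76.5 FPKM in control muscles (log2 fold change 2.50, SE 0.46, adjusted p = 0.0109).

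Among 18 other acyl-CoA enzymes, not all of them mitochondrial, 6 rose and 1 fell, beside 19.4% and 14.5% of all genes. Acss1, which activates acetate in mitochondria, was 241, 210.0, and 129 FPKM in C26 and 10.03, 16.4, and 9.45 FPKM in control muscles without overlap (log2 fold change 4.15, SE 0.32, adjusted p = 0.00153). Acsl6 had a log2 fold change of 1.51 (adjusted p = 0.0223), Acadsb, of branched short chains, one of 1.46 (adjusted p = 0.0174), and Acsf2, of medium-chain activation, was lower (log2 fold change -1.49, adjusted p = 0.00611). Acsf2 levels were low, at 0.56 to 0.66 FPKM in C26 and 2.58 to 4.94 FPKM in control muscles. Only 1 of these 18 was called higher without C26 replicate 1 and 1 without Control replicate 1. Of 16 listed genes of peroxisomal oxidation, 3 were higher and 5 lower, with a median of -0.31, against 19.4% and 14.5% of all genes. These counts fell to 0 higher and 3 lower without C26 replicate 1, to 1 higher and 2 lower without Control replicate 1, and to 0 higher and 2 lower in an ordinary linear model. Lower members included the transporter Abcd2 (log2 fold change -2.46, adjusted p = 0.0158), the thiolase Acaa1b (-1.72, adjusted p = 0.00632), and the reductase Pecr (-1.09, adjusted p = 0.0292). Acaa1b, which shares windows with Acaa1a, was only 0.90 to 1.05 FPKM in C26 and 3.56 to 7.18 FPKM in control muscles. Abcd2 is known from fat, and the 12 adipocyte markers summed to 470 to 611 FPKM in C26 muscles and to 4533, 2376, and 618 FPKM in Control replicates 1, 2, and 3. Fabp4 and Plin4, of which Plin4 was called higher, made up most of the C26 sums, while Adipoq, the adiponectin of fat cells, was 3.11, 2.06, and 0.180 FPKM in C26 and 176, 79.3, and 11.5 FPKM in control muscles. In bulk tissue fewer cells of a type and less RNA per cell cannot be told apart.

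Of 7 genes of fatty acid uptake and binding only Vldlr, the receptor for triglyceride-rich lipoproteins, was higher (log2 fold change 1.67, SE 0.24, adjusted p = 0.00588), at 65.7, 49.8, and 76.2 FPKM in C26 and 26.2, 22.6, and 19.5 FPKM in control muscles. The fatty acid transporter Cd36 was 117, 123, and 118 FPKM against 99.2, 82.6, and 28.5 FPKM and did not pass (log2 fold change 1.16, adjusted p = 0.106). That count of 1 in 7 is not above the 19.4% of all genes, and without Control replicate 3 it was 3. All 7 had positive log2 fold changes, and 3 were higher at an unadjusted p under 0.05. The median was 0.95, and 0.53 without Control replicate 3. Of 6 listed targets through which PPAR responds to fatty acids, Pdk4, Plin5, and Pdk2 were higher, beside 19.4% of all genes, but 1 alone was without Control replicate 1 or in an ordinary linear model. Pdk4, the kinase that shuts pyruvate dehydrogenase and so spares glucose, was 1408, 940.4, and 1190.0 FPKM in C26 and 92.4, 123, and 57.0 FPKM in control muscles (log2 fold change 3.96, SE 0.36, adjusted p = 0.00197). Plin5, which ties lipid droplets to mitochondria, had a log2 fold change of 2.60 (adjusted p = 0.0163), and Plin2 did not pass. Of 4 genes of ketone body use, 1 was higher, a share near the 19.4% of all genes. The monocarboxylate carrier Slc16a1 was higher (log2 fold change 1.83, adjusted p = 0.00643) and Oxct1 and Bdh1 did not pass.

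Of 21 transcriptional and kinase regulators of oxidation, 8 were higher and 3 lower, beside 19.4% and 14.5% of all genes, and the share lower is near that background. Ppargc1a, the coactivator PGC-1alpha, was 10.5, 10.7, and 9.29 FPKM in C26 and 3.02, 3.55, and 2.47 FPKM in control muscles (log2 fold change 1.77, SE 0.18, adjusted p = 0.00282). Ppard, the PPAR isoform that leads in muscle, was 17.5, 19.4, and 19.3 FPKM in C26 and 8.89, 8.97, and 9.15 FPKM in control muscles (log2 fold change 1.21, SE 0.14, adjusted p = 0.0035). Ppara stayed under 3 FPKM in every muscle and did not pass (log2 fold change 0.58, adjusted p = 0.31). Lpin1, a phosphatidate phosphatase and coactivator, and Foxo1, a forkhead factor of fasting, had log2 fold changes of 2.14 and 2.09 (adjusted p = 0.00554 and 0.00795). Prkag3, the gamma subunit of AMP-activated kinase in fast muscle, was 8.72, 10.6, and 7.96 FPKM in C26 and 86.6, 83.6, and 86.8 FPKM in control muscles (log2 fold change -2.96, SE 0.14, adjusted p = 0.000822). Rxrg, a retinoid X receptor, was also lower (log2 fold change -2.14, adjusted p = 0.013), as was Ppargc1b, the paralog of Ppargc1a (log2 fold change -0.91, adjusted p = 0.0362). Ppargc1b stayed under 3 FPKM in every muscle. Among the 21, 4 were higher and 1 lower without C26 replicate 1, 5 higher and 1 lower without Control replicate 1, and 7 higher and 1 lower in an ordinary linear model. Ppargc1b lost its call when any of 4 muscles was left out and Rxrg when any of 2 was.

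The libraries carried the muscle genes Ckm and Acta1 at 14314 to 26160.2 and 10780.6 to 27269 FPKM, although a protocol field of the labels describes infected THP-1 cells, a human monocyte line. The 10 muscle markers summed to 59793 to 93555 FPKM in C26 and to between 129870.0 and 141650.0 FPKM in control muscles, with 1 higher and 2 lower by the test. Of the marker lists for other cells, adipocyte markers were lower for 8 of 12 and higher for 1, fibroblast markers lower for 3 of 6, endothelial markers lower for 3 of 7, erythroid markers higher for 4 of 4 listed, and neutrophil markers higher for 2 of 2 listed, beside 19.4% of all genes higher and 14.5% lower. Many of these marker calls were lost when 1 muscle was left out. No macrophage marker (10 listed), lymphocyte marker (2 listed of 8), slow fiber marker (7), or listed brown adipocyte marker (3 of 5, without Ucp1) was called, and of 8 fast fiber markers 3 were lower. The macrophage marker Cd68 was 34.9, 247, and 6.46 FPKM in C26 and 4.75, 1.75, and 5.77 FPKM in control muscles, without overlap (log2 fold change 3.40, adjusted p = 0.0653), and made up most of the macrophage sum of 328 FPKM in C26 replicate 2. The part of these cells in the differences was not tested.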

How the data were processed

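RNA of 6 gastrocnemius samples, 3 of C26 mice and 3 of control mice, was depleted of rRNA with RNase H and read as single-end 50-base reads on a BGISEQ-500 by the study's methods, whereas the labels name Illumina library protocols. The authors cleaned the reads, aligned them with bowtie2 and estimated expression with RSEM, and deposited FPKM to 2 decimals under Entrez gene IDs. The methods name GRCm38.p5 as the genome, while the submitters' processing notes list mm9, Bowtie2 2.2.5, HISAT2 2.0.4, and RSEM 1.2.12. Read counts were not analysed here, so depth and counting error are unknown, and precision rests on how far the 3 muscles of each group differ. All 13363 listed genes were above 0 in all 6 muscles, and symbols were matched for 13327.

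FPKM were rescaled to TPM (a sum of 1000000 per sample), divided by TMM factors (trimming 30% of the log ratios and 5% of the mean levels), and log2-transformed with a pseudocount of 1, so that fold changes of low genes are understated. Groups came from the labels, and C26 and control muscles were compared over all genes with limma 3.58.1 in R 4.3.3 with empirical Bayes moderation and Benjamini-Hochberg adjustment. The ratios of Cpt1b to Cpt1a and of Ucp3 to Ucp2 were compared with exact permutation tests, and other ratios are given without a test. On simulated data for this comparison over 13363 genes, 161 of 200 genes changed by a log2 value of 2 were recovered, with 9 false calls. The changed genes were drawn only from those of higher mean level, with noise independent between genes, so recovery of low genes was not measured. The alternatives were other scalings (TPM without TMM, quantile normalization, and FPKM as deposited), a pseudocount of 0.1, a filter on mean TPM under 1, a replicate block, an intensity trend, an ordinary linear model, and each muscle left out.

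Promoter windows came from RefSeq (GRCm38.p6). The 50-base windows were counted in GENCODE transcripts of GRCm38, which may differ from the authors' annotation. The members and lists were chosen with earlier results of these data known. Values are given in full for up to 3 called genes of each role with the largest changes, and for Cpt1a, Cpt1b, Acacb, Mlycd, Ucp2, Ucp3, and Acot2. Genes of other lists are named for up to 4 called genes with the largest changes, and for Ppara, Ppard, Ppargc1a, and Pdk4. Some genes that this rule or the lists would name are not reported here. Further genes were named after their values were seen.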

Additional observations from a re-analysis of the deposited data

How the results depend on the processing

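Depth is unknown, and with 3 muscles a group each spread rests on few samples, so calls near the threshold moved most. The number of genes higher in C26 muscle was 1678 on FPKM as deposited, 1526 in an ordinary linear model, and 1131 to 3311 with a muscle left out, against 2590. The number lower was 959 in an ordinary linear model and 669 to 2160 with a muscle left out, against 1931. Of the 36 fatty acid oxidation genes, an ordinary linear model called 10 higher, and leaving out a muscle gave 9 to 20 higher and 1 to 2 lower. The ordinary linear model did not call Slc25a20, Crat, Acad11, Etfb, Etfdh, Hadha, and Acat1. TPM without TMM, FPKM as deposited, and quantile normalization each called 2 lower, with Acaa1a joining Acsl5. Quantile normalization left 1 gene above 4-fold, Acot2. The replicate numbers are not stated to mark shared animals, and same-numbered muscles deviated with correlations of -0.04, -0.08, and -0.11. With the number as a replicate block, 1844 genes were higher and 1236 lower, and of the 36 genes Slc25a20, Crat, and Etfb were not called. Log2 ratios of Cpt1b to Cpt1a and of Ucp3 to Ucp2 were 1.54 to 2.08 and 0.59 to 2.22 with a muscle left out, and 1.52 and 1.51 with a pseudocount of 1 FPKM. A factor per muscle or the block cannot change them, and they were not recomputed after quantile normalization. The sign turned for Acsl4 on FPKM as deposited (-0.10) and for Acadm (-0.034) and Acot13 (-0.15) after quantile normalization. With 1 muscle left out it turned for Acsl1 (-0.13 to 0.77), Acads (-0.63 to 0.082), Hadh (-0.29 to 0.21), Acaa2 (-0.93 to 0.011), Decr1 (-0.66 to 0.13), and Ucp2 (-0.11 to 1.19), and none of these genes was called with all 6 muscles. The cause of these shifts was not tested. Of 288 fold changes of single genes under the other alternatives, 262 kept direction and call, 5 gained a call, 18 lost one, and 3 turned. Of 216 with a muscle left out, 180 kept both, 4 gained, 25 lost, and 7 turned.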
